A study of Mus musculus with 6 samples.

Results

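The 45 genes described here encode proteins of the cytosolic ribosome, 27 of the large subunit and 18 of the small subunit, among 20637 genes listed for the mouse uterus. Members were taken by gene symbol from a list drawn up with earlier results of these data known, and all 45 were found. They were compared between 3 floxed control uteri (Nat10 f/f) and 3 uteri in which Nat10 was deleted (Nat10 d/d), all taken from female mice at 21 days after birth (postnatal day 21). The Nat10 protein acetylates cytidines in RNA, including the RNA of the small ribosomal subunit. Each library was made from polyadenylated RNA of a whole uterus. The labels do not name the Cre driver, the cells in which the deletion occurs, the deleted exons or the strain, so it is not known from them what share of the uterus lacked Nat10. Nothing in the labels says that the replicates of a group came from separate animals, and p-values measure only the spread between these libraries.

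The ribosome reads mRNA on its small subunit and joins amino acids on its large subunit, and each subunit is a fixed assembly of ribosomal RNA and many proteins. Their mRNAs are among the most abundant in most cells. Most begin with a cytidine followed by a run of pyrimidines, the terminal oligopyrimidine tract, through which the mTOR pathway and the RNA-binding protein Larp1 control their translation. Because that control acts largely on translation, an mRNA level does not give the output of protein. Ribosomal proteins that are made without a matching supply of ribosomal RNA can bind the p53 inhibitor Mdm2, a link described for Rpl5 and Rpl11 in particular.

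The pyrimidine start is the feature that the members are known to share, and it was looked for in the reference sequence. RefSeq start windows (GRCm38.p6, 250 bases before to 50 after an annotated start) were found for 35 of the 45 members. In 8 of these 35 (22.9%), the annotated start is a C that opens a run of at least 5 pyrimidines, against 3.01% of the 27025 genes with a window. The 8 windows are shown from 10 bases before the start to 20 bases from it onward, on the strand of the gene, with the pyrimidine run in capitals.
Rplp2 (chr7:141447641-141447670, plus strand): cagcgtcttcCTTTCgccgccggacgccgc
Rpl14 (chr9:120571507-120571536, plus strand): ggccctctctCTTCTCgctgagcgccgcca
Rpl15 (chr14:18270967-18270996, minus strand): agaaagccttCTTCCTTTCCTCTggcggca
Rpl28 (chr7:4792955-4792984, plus strand): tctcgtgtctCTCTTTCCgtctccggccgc
Rpl35 (chr2:39005112-39005141, minus strand): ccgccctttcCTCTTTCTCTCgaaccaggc
Rpl38 (chr11:114668570-114668599, plus strand): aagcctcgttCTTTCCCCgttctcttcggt
Rps6 (chr4:86857348-86857377, minus strand): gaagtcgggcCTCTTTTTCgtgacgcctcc
Rps18 (chr17:33955646-33955675, minus strand): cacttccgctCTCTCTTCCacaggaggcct
The runs are 5 bases long in Rplp2, 6 in Rpl14, 8 in Rpl28 and Rpl38, 9 in Rps6 and Rps18, 11 in Rpl35 and 13 in Rpl15. For the other 27 members with a window, the letters at the annotated start are different, which says nothing of where transcription starts in the uterus. The members without a window are Rplp1, Rpl3, Rpl7, Rpl8, Rpl30, Rpl32, Rps14, Rps20, Rps27a and Rps29. A second motif, CCGGAAG on either strand, the core to which Ets factors such as Gabpa bind, was present in the windows of 13 of 35 members (37.1%) and of 9.93% of all genes with a window. Among the genes expressed here that have a window, its share was 19.5%, and that of the pyrimidine start was 2.97%.

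The targeted gene was checked before the members. Nat10 had FPKM of 13.2, 16.4 and 9.95 in controls 1, 2 and 3 and of 5.57, 5.23 and 5.53 in deleted replicates 1, 2 and 3, without overlap. The deleted mean was 41.4% of the control mean (log2 change -1.11, SE 0.17; limma adjusted p 0.669; exact two-sided permutation p 0.1, the smallest that 3 against 3 libraries allow). FPKM is a fragment count scaled for the length of the transcript and the size of the library. Summed FPKM ranged from 500764 to 549263 over the libraries, and their depths, estimated relative to each other, differed by at most 1.26 times. Deleted replicate 2 stood apart from the other libraries on the first principal component (48.4% of the variance), with a score of -40.2 against -4.6 to 25.1 in the others. Summed over 20 proliferation genes, it had 766 FPKM, against 198 to 320 in controls and 167 and 122 in deleted replicates 1 and 3. The 12 uterine marker genes looked for, such as Esr1 and Hoxa10, were each listed above 0 in at least 1 library, with sums of 627 to 728 FPKM for the control group and 556 to 648 for the deleted group. Mean values of 11 of the 12 were lower in deleted uteri, and 3 of these did not overlap, where 4.6% of all genes tested were lower without overlap. Pgr, the progesterone receptor, was among the 3 (log2 change -1.06; limma adjusted p 0.669), and Wnt7a, the remaining marker of the 12, was higher without overlap (0.66). The part of these markers in the member values was not tested. The 8 ovary genes summed to between 35.7 and 37.5 FPKM in controls and between 25.5 and 35.4 in deleted uteri. Fshr, Cyp19a1 and Zp3 were listed at 0 in every library, while Foxl2 had 28.1, 28.9 and 26.7 FPKM in controls and 22.2, 18.1 and 24.0 in deleted uteri, without overlap. Of the 4 ovary genes tested, 2 were higher and 2 lower in deleted uteri. Foxl2 was the only 1 of the 4 without overlap, where 4.6% of all genes tested were lower without overlap. The part of ovary RNA in the member values was not tested.

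Ribosomal protein mRNAs made up a large and steady part of the uterine transcriptome. The 45 members held 14.7%, 14.0% and 14.5% of the summed FPKM in controls 1, 2 and 3, and 15.0%, 13.6% and 15.0% in deleted replicates 1, 2 and 3. Deleted replicates 1 and 3 thus lay above the control range and deleted replicate 2 below it, and the control and deleted means were 14.4% ± 0.361 and 14.5% ± 0.808 (SD, n = 3). Large subunit members held 8.25% ± 0.233 of the control and 8.34% ± 0.433 of the deleted sum (SD, n = 3), and small subunit members 6.15% ± 0.147 and 6.21% ± 0.358. The mean FPKM of a large subunit member divided by that of a small subunit member came to 0.894 ± 0.0131 for controls and 0.895 ± 0.00656 for the deleted group (SD, n = 3). The proportion of the subunits to each other therefore differed between groups by less than its spread among replicates. Of the 45 members, 23 were among the 50 genes with the highest mean FPKM and 38 among the top 100.

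Although 1 copy of most of these proteins sits in each ribosome, the mRNAs were not equally abundant per length. Control means ran from 165 FPKM for Rps20 to 5964 for Rplp1, a 36.1-fold range, with a median of 1486 over the large and 1617 over the small subunit. Control means were over 1000 FPKM for 32 members and under 500 for 4, namely Rps20, Rpl22, Rpl15 and Rpl37. This order was much the same in each library: over the 45 members, Pearson correlations of log2 FPKM between libraries were 0.976 to 0.996, as a description of the 15 library pairs. The members are short, which matters for a length-normalized unit: the longest annotated transcript had a median of 1106 bases for large and 1118 for small subunit members, against 3431 for the 12640 genes tested. Many have processed pseudogenes with near-identical sequence. The GENCODE M21 annotation names 114 for 32 of the members, and 5 of these 114 have a row in the deposited tables. Another gene on the opposite strand overlaps 15 members. How reads were divided in either case is not stated, so the level of a single such member is uncertain.

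**Figure D1:**
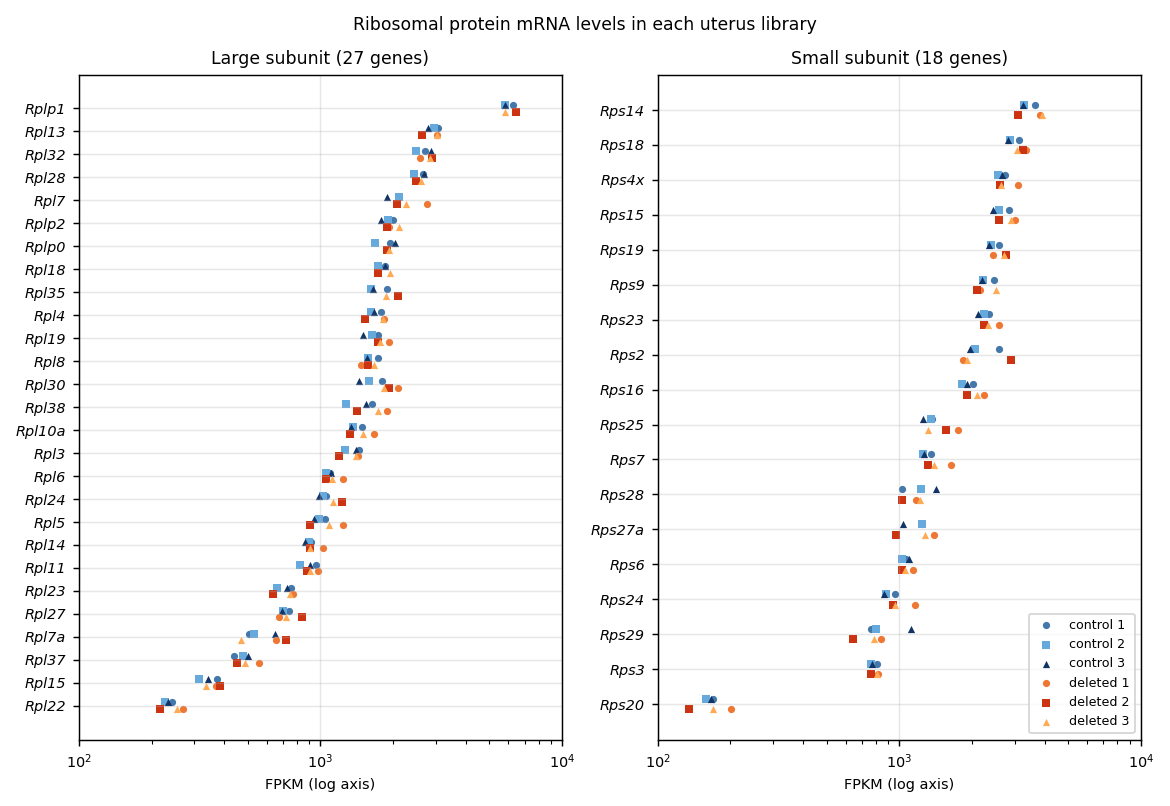
FPKM (log axis) of each ribosomal protein gene in the 3 control (blue) and 3 Nat10-deleted (orange to red) libraries, in order of the control mean, with 1 point per library. Levels span 165 to 5964 FPKM between genes, while the libraries of a gene lie close together, and the groups overlap for all but Rpl24 and Rpl30.

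No ribosomal protein gene passed the test between Nat10-deleted and control uteri. At an adjusted p of 0.05 in limma, 0 of 45 were called, where 0.0% of the 12640 genes tested were. At an unadjusted p under 0.05, 0 of 45 were found in limma against 4.98% of all genes (2.68% higher and 2.3% lower in deleted uteri), and the smallest unadjusted p of a member was 0.0749. In 2 members, both of the large subunit, every deleted library lay above every control, and in none below. That is 4.44% of the members, while 10.7% of all genes had groups that did not overlap (6.12% higher and 4.6% lower). Differences between group means were small. The log2 changes ran from -0.23 to 0.28, and the deleted mean was within 10% of the control mean for 35 of the 45. The 95% intervals of the changes lay inside -0.5 to 0.5 for 37 members, and over all members they reached from -0.66 (Rps29) to 0.60 (Rpl30). These intervals bound the differences that 3 libraries a group leave possible, and they do not show that the groups are alike. Changes of this size would rarely be called with this number of libraries.

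The median log2 change was 0.06 for the large and 0.07 for the small subunit, against 0.03 for all genes tested. Mean levels were higher in deleted uteri for 22 of 27 large and 14 of 18 small subunit members, against 56.6% of all genes, as the values were deposited, but not under every scaling. Of the 45, 36 were higher as deposited, 31 after median centring, 29 after upper-quartile scaling, 26 when each library was rescaled to the same sum, and 23 after quantile normalization. With each library corrected for the GC content and length of transcripts, 15 were higher and 30 lower, with median changes of -0.03 for the large and -0.02 for the small subunit. No direction is therefore given for either subunit.

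**Figure D2:**
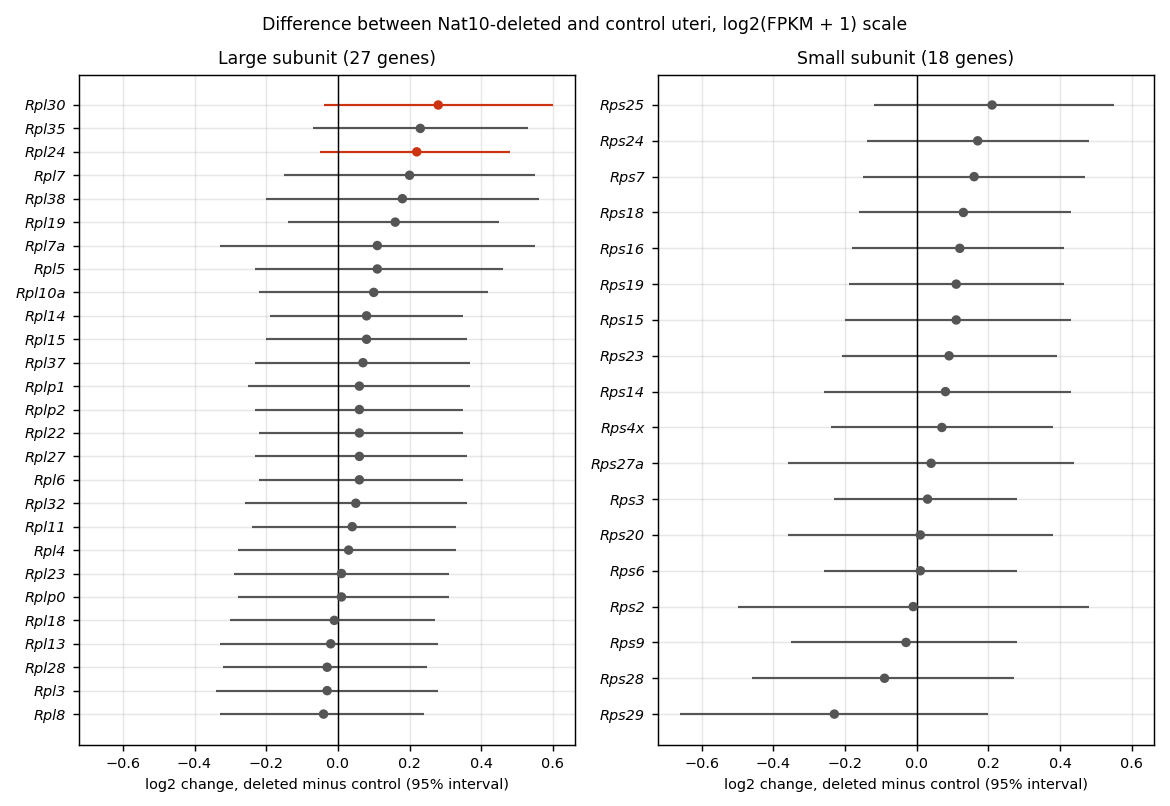
Log2 change of each member (deleted minus control, log2(FPKM + 1) scale) with its 95% interval from limma. Every interval includes 0, and the changes lie between -0.23 (Rps29) and 0.28 (Rpl30). Members whose groups did not overlap, Rpl24 and Rpl30, are in red.

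Among large subunit genes, Rpl30 had the largest difference. Rpl30 (ENSMUSG00000058600; GRCm38 chr15:34440505-34443640, minus strand) encodes a small RNA-binding protein that also takes part in the decoding of selenocysteine. It had 1795, 1596 and 1443 FPKM in controls 1, 2 and 3 and 2102, 1929 and 1839 in deleted replicates 1, 2 and 3, the order used from here on. All deleted libraries lay above all controls, with a narrow gap between control 1 and deleted replicate 3. On the log2 scale the difference was 0.28 (SE 0.14; limma adjusted p 0.922). Another gene, D730044K07Rik, overlaps it on the opposite strand, and 9 pseudogenes are named after it. Rpl24 (ENSMUSG00000098274; chr16:55966275-55971435, plus strand) encodes a protein that bridges the subunits and is altered in the Belly spot and tail mouse. It had 1057, 1022 and 988 FPKM in controls and 1217, 1224 and 1130.2 in deleted uteri, again without overlap (log2 change 0.22, SE 0.11; limma adjusted p 0.922). Under the 18 alternatives tried, the change of Rpl24 stayed between 0.07 and 0.26 and that of Rpl30 between 0.10 and 0.36, and neither was called in any.

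Rpl35 and Rpl7 came next by p. Rpl35 (ENSMUSG00000062997; chr2:39001580-39005624, minus strand) encodes a protein near the exit of the peptide tunnel, and its start carries the run of 11 pyrimidines shown above. It had FPKM of 1878, 1627 and 1652 in controls and 2073, 2097 and 1864 in deleted uteri. The groups met at control 1, which was just above deleted replicate 3 (log2 change 0.23, SE 0.13). Rpl7, an RNA-binding protein, had 2118, 2114 and 1894 FPKM in controls and 2753, 2078 and 2266 in deleted uteri. Deleted replicate 1 was far above the rest, and the log2 change was 0.20 with that library and 0.09 without it.

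The stalk genes form the arm of the large subunit that recruits the elongation factors. Rplp0, the base of the stalk and a common reference gene in PCR, had 1934, 1691 and 2033 FPKM in controls and 1890.0, 1893 and 1917 in deleted uteri. The 3 deleted libraries agreed closely, with a coefficient of variation of 0.788% against 9.34% in controls, and lay inside the control range (log2 change 0.01, 95% interval -0.28 to 0.31). Rplp1, an acidic stalk protein and the most abundant member, had 6285, 5801 and 5808 in controls and 6412, 6429.8 and 5807 in deleted uteri. Its partner Rplp2 had 1990.1, 1905 and 1784 in controls and 1922, 1886 and 2116 in deleted uteri. Both overlapped between groups, with log2 changes of 0.06, and Rplp1 mRNA was over 3 times as abundant per length as Rplp2 mRNA in the controls (5964 against 1893 FPKM).

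Rpl5 and Rpl11 bind the smallest ribosomal RNA and can bind Mdm2. Rpl5 had 1040.3, 983 and 943 FPKM in controls and 1246, 905 and 1082 in deleted uteri, so that deleted replicate 2 was the lowest and deleted replicate 1 the highest of the 6. Rpl11 had 956, 823 and 902 in controls and 977, 877 and 909 in deleted uteri, inside or just above the control range. The log2 changes were 0.11 (SE 0.15) and 0.04 (SE 0.12). Leaving out 1 library at a time gave 0.0 (without deleted replicate 1) to 0.23 (without deleted replicate 2) for Rpl5 and -0.01 to 0.09 for Rpl11. A list with genes of the p53 branch that these proteins touch was examined beside them. It also holds Rrs1, Bop1, Pes1 and Gtf3a, which act in ribosome production, so its shares and median are not those of p53 genes alone. Mean Mdm2 levels were 17.6 ± 1.75 FPKM for controls and 27.1 ± 3.53 for the deleted group (SD, n = 3), and those of the p53 target Cdkn1a 5.73 ± 1.83 and 64.4 ± 44.9. In neither did the groups overlap, and neither passed the test over all genes (limma adjusted p 0.85 and 0.669). Trp53 itself had a log2 change of -0.07. Of the 9 tested genes of this list, 2 had an unadjusted p under 0.05, both higher, against 4.98% of all genes (2.68% higher), and the median change was 0.07. The groups did not overlap for these 2 of 9, against 10.7% of all genes (6.12% higher).

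The remaining large subunit genes picked for their role or level also overlapped between groups. Rpl3, which lies near the catalytic centre, had 1445, 1268 and 1402 FPKM in controls and 1426, 1198 and 1407 in deleted uteri. Rpl38, altered in the Tail-short mouse and known for its part in translating Hox mRNAs, had 1637, 1276 and 1544 in controls and 1888, 1419 and 1737 in deleted uteri (log2 change 0.18, SE 0.16). That change was 0.07 without control 2, 0.09 without deleted replicate 1 and 0.29 without deleted replicate 2. Its spread was wide in both groups, with coefficients of variation of 12.6% and 14.2%. Rpl13, second in level within the subunit, had 3071, 2962 and 2790.4 in controls and 3027, 2629.7 and 3039 in deleted uteri. At the low end, Rpl22, an RNA-binding protein that mice can live without, had 243, 228 and 234 in controls and 269, 216 and 256 in deleted uteri. Rpl15, a core protein altered in some cases of Diamond-Blackfan anaemia, had 375, 315 and 342 in controls and 369, 383 and 337 in deleted uteri. For Rpl3, Rpl13 and Rpl22, deleted replicate 2 was the lowest of the 6 libraries, and for Rpl15 it was the highest. The other 13 large subunit genes had control means from 474 (Rpl37) to 2686 FPKM (Rpl32) and log2 changes from -0.04 (Rpl8) to 0.16 (Rpl19), and all of them overlapped. For Rpl19 the overlap was slight, with 1734, 1635 and 1497 in controls and 1927, 1732 and 1757 in deleted uteri.

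In the small subunit the groups overlapped for all 18 genes. Rps25, which is needed for initiation at some internal entry sites, had the smallest p. It had 1365, 1350.4 and 1249 FPKM in controls and 1751, 1555 and 1315 in deleted uteri, so that deleted replicates 1 and 2 were above the controls and replicate 3 was among them (log2 change 0.21, SE 0.14; limma adjusted p 0.924). The change was 0.12 without deleted replicate 1 and 0.32 without deleted replicate 3. Rps24 had 962, 884 and 868 in controls and 1160.2, 946 and 961 in deleted uteri. Rps7, another protein that can bind Mdm2, had 1354, 1254 and 1263 in controls and 1638, 1319 and 1388 in deleted uteri. In both genes deleted replicate 1 was the highest of the 6 libraries, and without it the log2 changes were 0.08 for Rps24 and 0.07 for Rps7, against 0.17 and 0.16 with it.

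Rps29 had the most negative change of the 45. Rps29 (ENSMUSG00000034892; chr12:69157722-69159186, minus strand) encodes a small zinc-binding protein of the subunit head. It had 766, 803 and 1115 FPKM in controls and 844, 641 and 784 in deleted uteri. Control 3 was far above the other controls, which lay among the deleted values. Its change was -0.23 on the log2 scale (SE 0.18; limma adjusted p 0.928), or -0.06 when control 3 was left out. In Rps28 control 3 was also the highest library, with 1031, 1227 and 1414 in controls and 1178, 1024 and 1219 in deleted uteri, and its change went from -0.09 to 0.02 without that library. The longest annotated transcript of Rps29 has 461 bases, and of the members only Rpl38, at 457, has a shorter one.

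The small subunit genes chosen for their role lay within or near the control range in most libraries. Rps19, the gene most often mutated in Diamond-Blackfan anaemia, had 2588, 2388 and 2350.0 FPKM in controls and 2437, 2772 and 2707 in deleted uteri. Rps6, the substrate of the S6 kinases downstream of mTOR, had 1065, 1024 and 1095 in controls and 1143, 1023 and 1051 in deleted uteri (log2 change 0.01, 95% interval -0.26 to 0.28). Rps3, which lies at the mRNA entry channel, had 811, 762 and 769.5 in controls and 818, 765 and 807 in deleted uteri. Of the 45 members, Rps3 and Rpl24 had the smallest standard errors, at 0.11. Rps4x, the X-linked member, had 2727, 2550.1 and 2649 in controls and 3094, 2601 and 2639 in deleted uteri, where deleted replicate 1 alone exceeded the controls. Rps27a, which is made as a fusion with ubiquitin, had 1241, 1238 and 1033 in controls and 1393, 971 and 1278 in deleted uteri.

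Levels at the ends of the small subunit range showed the same overlap. Rps14, a protein of the platform whose loss underlies anaemia in a human deletion syndrome, was the highest, with 3659.9, 3295 and 3243 FPKM in controls and 3836, 3107 and 3882 in deleted uteri. Rps18 had 3125, 2867 and 2806 in controls and 3337, 3252 and 3062 in deleted uteri. The lowest member, Rps20, had 169, 159 and 167 in controls and 202, 135 and 169 in deleted uteri, with a coefficient of variation of 3.08% in controls and 20.1% in deleted uteri. The other 6 small subunit genes had control means from 1224 (Rps28) to 2629.7 FPKM (Rps15) and changes from -0.09 to 0.12. Among them Rps2 varied most over the deleted libraries (coefficient of variation 26.5%), with 2586, 2055 and 1970.2 in controls and 1841, 2894 and 1915 in deleted uteri, deleted replicate 2 being far above the other deleted libraries.

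Single deleted libraries differed from each other in how many members lay outside the control range. In deleted replicate 1, 30 of 45 members exceeded every control and 5 were below every control, where 34.2% and 31.9% of all genes tested did so. Deleted replicate 3 had 20 above and 2 below, where 4292 and 3223 of the 12640 genes tested did so. In deleted replicate 2, 12 were above and 15 below, against 38.4% and 33.1% of all genes. Deleted replicate 1 was the highest of the 6 libraries for 25 of the 45 members, where it was so for 18.5% of all genes tested. Deleted replicate 2 was the lowest for 15 of the 45, against 25.7% of all genes. Relative to the control mean, the median log2 value of the large subunit was 0.07, -0.04 and -0.02 in controls and 0.13, -0.02 and 0.06 in deleted replicates 1, 2 and 3. For the small subunit it was 0.07, -0.04 and -0.06 in controls and 0.19, -0.02 and 0.06 in deleted uteri. The subunits thus ranked the deleted libraries in the same order. Members varied less than the typical gene: the median standard deviation of log2 values was 0.0806 among controls and 0.122 among deleted libraries, against 0.123 and 0.208 over all genes tested. The members are far more abundant than most genes tested, and no comparison with genes of like level was made. The lower spread is thus not shown to be particular to them.

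**Figure D3:**
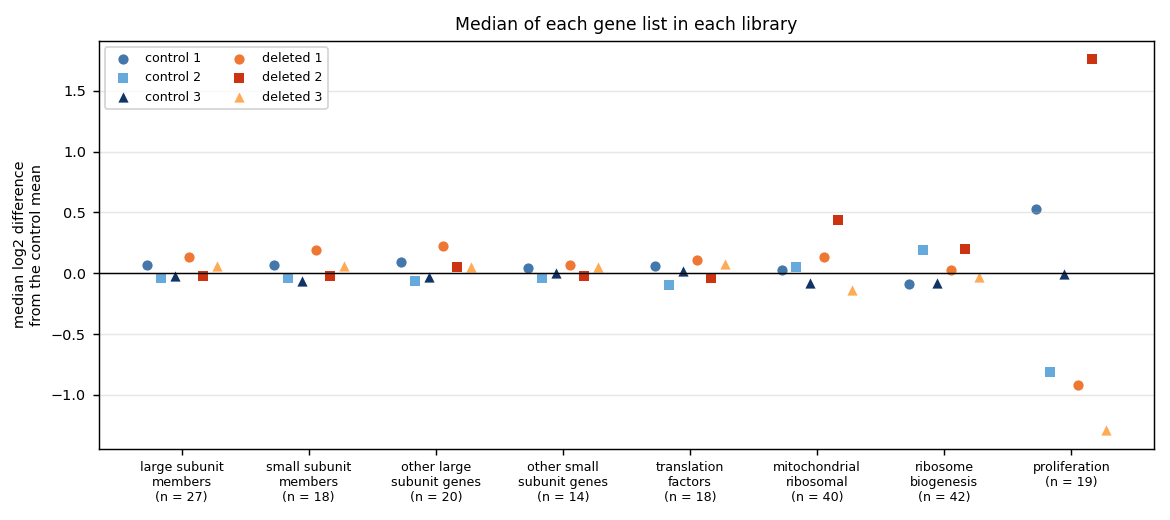
Median log2 difference from the control mean in each library (y axis) for members of each subunit and for 6 other lists (x axis, with the number of genes tested), 1 point per library. The 4 lists of cytosolic ribosomal proteins stay within -0.06 to 0.22 of the control mean, while the mitochondrial ribosomal list is at 0.44 and the proliferation list at 1.76 in deleted replicate 2.

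Deleted replicate 2, which had the high proliferation sum, did not have a high median of ribosomal protein mRNA in either subunit. The proliferation list stood at 1.76 above the control mean in that library (median log2 over 19 genes), against -0.02 for either subunit. Blood genes summed to between 852 and 5582 FPKM in the control libraries and between 709 and 1723 in the deleted ones, all 5 tested having lower means there, and their part in the member values was not tested. Leukocyte genes, from cells that can be rich in ribosomal protein mRNA, summed to between 75 and 105 FPKM in controls and between 71 and 97.1 in the deleted libraries, with overlap. The 8 epithelial genes summed to between 843 and 911 FPKM in controls and between 788 and 1106 in deleted uteri. Of these 8, 5 were higher and 3 lower (Cldn3, Cldn4 and Krt19), with a median log2 change of 0.09. Epcam and Cldn7 were higher without overlap, 2 of 8 against 6.12% of all genes, and the part of epithelial RNA in the member values was not tested. Fewer cells of a type and less RNA per cell cannot be told apart in whole uterus.

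The other genes of the translation machinery were read from lists alongside the members. The 20 large subunit genes outside the member list gave a median of 0.08 (18 had higher and 2 lower means in deleted uteri), and the 14 other small subunit genes one of 0.05 (11 and 3). Of all genes tested, 56.6% were higher. As for the members, such counts hold for the values as deposited, and other scalings are not given for these lists. None of the 34 had an unadjusted p under 0.05, which 4.98% of all genes had. The smallest p belonged to Rpl36a (log2 change 0.29) and Rpl34 (0.22) in the large and to Rps27 (0.23) and Rps15a (0.15) in the small subunit. In Rpl26 alone of the 34 did the groups not overlap, against 10.7% of all genes. Translation factors and partners whose mRNAs share the pyrimidine start, such as Eef1a1 and Tpt1, had a median change of 0.06 over 18 genes, 10 higher and 8 lower. The smallest p among them belonged to Btf3, a subunit of the nascent polypeptide-associated complex, with 483, 463 and 448 FPKM in controls and 534, 615 and 530.1 in deleted uteri, and to Npm1 (log2 change 0.35). Btf3 and its partner Naca did not overlap between groups, 2 of 18 against 10.7% of all genes.

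Regulators of these mRNAs did not pass the test either. Over 21 genes of the mTOR pathway and of pyrimidine-tract binding, with Myc, Mycn and Max among them, the median change was 0.01, with 12 higher and 9 lower. Rps6kb2, an S6 kinase, was the 1 of 21 with an unadjusted p under 0.05, where 4.98% of all genes passed (log2 change 0.35, SE 0.14; limma adjusted p 0.922), and its groups overlapped. Myc, a transcription factor that drives ribosome production, had 59.7, 54.9 and 48.8 FPKM in controls and 44.3, 36.5 and 50.5 in deleted uteri (log2 change -0.32, SE 0.15), with overlap at deleted replicate 3. Rheb, the activator of mTOR, had higher values in every deleted library (96.9, 88.3 and 79.0 FPKM) than in any control (76.3, 77.4 and 65.1), and Deptor, an inhibitor of mTOR, lower ones. These 2 of 21 stand beside the 10.7% of all genes whose groups did not overlap. Of the 14 chaperones and import factors of ribosomal proteins, 7 were higher and 7 lower, and the smallest p belonged to Pdcd2 (log2 change 0.25) and Ncl (0.17).

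Variant copies of ribosomal protein genes were also examined. Of 8 paralogues, 5 were tested and Rpl10l and Rpl39l were listed at 0 in every library. Rps27l, a known p53 target, had 234, 241 and 189 FPKM in controls and 269.6, 557 and 219.5 in deleted uteri, so that deleted replicate 2 was far above every other library (log2 change 0.54, SE 0.32; limma adjusted p 0.922). Deleted replicate 1 lay somewhat above the controls and replicate 3 among them. Rps27rt, an intronless copy whose reads may be shared with Rps27, ranged from 486 to 1428 FPKM in controls alone. Rpl22l1, the partner copy of Rpl22, had a log2 change of 0.06, the same as Rpl22, and per length it was more abundant than Rpl22 in the controls (758, 561 and 497 against 243, 228 and 234 FPKM).

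The neighbouring ribosomal programmes gave these values beside the members. Genes of the mitochondrial ribosome had a median change of 0.11 over 40 genes, 36 higher and 4 lower, and ribosome biogenesis genes 0.06 over 42, 30 higher and 12 lower, where 56.6% of all genes were higher. These counts hold for the values as deposited. The other scalings, under which fewer members were higher, are not given for these lists, so no direction is given for them either. At an unadjusted p under 0.05 there were 1 of the 40 mitochondrial and 2 of the 42 biogenesis genes, all higher, where 4.98% of all genes passed (2.68% higher). Mrps6 (log2 change 0.28) and Mrps23 (0.25) had the smallest p in the mitochondrial list, and Gar1 (0.43) and Utp3 (0.24), which act in ribosomal RNA modification and processing, in the biogenesis list. Only in these 4 genes of the 2 lists did the groups not overlap, and all 4 were higher. That is 2 of 40 and 2 of 42, where 6.12% of all genes were higher without overlap. None passed the test over all genes (limma adjusted p 0.922 each). Relative to the control mean, the mitochondrial list was at 0.03, 0.05 and -0.08 in controls and at 0.13, 0.44 and -0.14 in deleted replicates 1, 2 and 3, so that replicate 3 lay below every control. Both subunits of the cytosolic ribosome were at -0.02 in deleted replicate 2. The biogenesis list was at 0.20 in that library and at 0.19 in control 2. Whether the lists differ from each other was not tested.

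Features that the choice of members did not use were set against the changes as a description. The 8 members with the pyrimidine start in RefSeq had a median log2 change of 0.08, from -0.03 (Rpl28) to 0.23 (Rpl35), and the 27 others with a window had 0.07. Those with CCGGAAG had 0.08 (13 genes) and those without it 0.07 (22 genes). Ribosomal protein genes are known hosts of small nucleolar RNAs, which guide the modification of ribosomal RNA and are cut from introns. In GENCODE M21, 15 of the 45 members (33.3%) hold at least 1 such gene on their own strand, against 1.77% of the genes tested. Rpl4 holds 5, the most of any member, and Rpl5 and Rpl7a hold 3 each. The host genes had a median change of 0.05 and the other 30 members 0.08. For the 32 members with a named pseudogene the median was 0.08, and for the 13 without one 0.03.

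**Figure D4:**
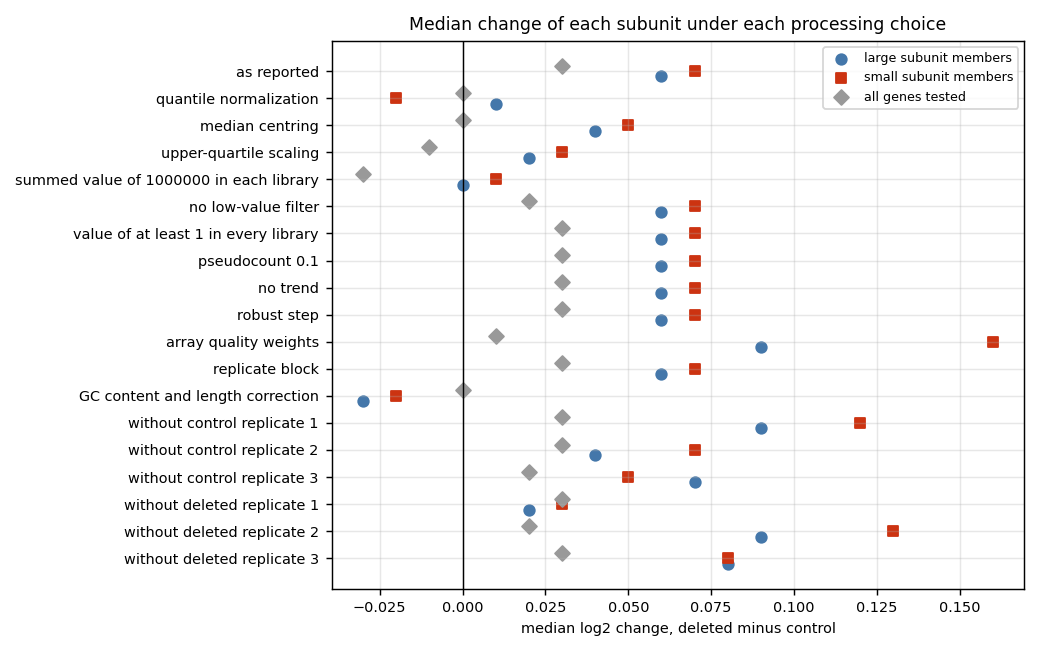
Median log2 change (x axis, deleted minus control) of the large subunit, the small subunit and all genes tested under each processing choice (y axis). Both subunits lie between -0.03 and 0.16, at 0.06 and 0.07 as reported, and below 0 after correction for GC content and length.

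Under each of the 18 alternatives, 0 of 45 members were called. With array quality weights, which gave deleted replicate 1 a weight of 3.74 and deleted replicate 2 one of 0.22, 10 of 45 had an unadjusted p under 0.05, where 29.5% of all genes did. With these weights 2.5% of all genes and 0 of 45 members were called, and the smallest adjusted p of a member was 0.0743 (Rpl7, limma).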

How the data were processed

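The 6 RNA-seq libraries of whole mouse uterus, 3 per group, were grouped by their titles. Per the submitters' processing notes, HISAT2 2.2.1 and Cufflinks 2.2.1 were used with the mm10 build; gene set, gene filter and strandedness are not given in the sources used here. The authors deposited 1 value per gene and library. The unit was taken as FPKM (fragments scaled for length and library size) from the tool and the values, since no deposited header names it. FPKM hold no counts, so no counting intervals are given, and relative depth (estimated from values under 0.1 that recur at a fixed ratio between libraries) differed by at most 1.26 times. No libraries held identical values.

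The 12640 genes that reached an FPKM of 1 in 3 or more libraries were tested on log2(FPKM + 1) with limma 3.58.1 in R 4.3.3 (lmFit, eBayes with trend; two-sided; Benjamini-Hochberg over all genes; threshold 0.05). The fit was checked on simulated data, in which changes of 0.5 on the log2 scale, larger than those of the members, were almost never called. Fold changes on this scale understate changes of low genes. Of the identifiers, 99.62% matched GENCODE M21 (GRCm38). Members with values in each library were chosen by role, by the 4 smallest p, by the 2 highest and 2 lowest control means of each subunit, or because the groups did not overlap; Rpl19, Rps28 and Rps2 were added after their values were seen. In the other lists, genes with the 2 smallest p were named, and Trp53, Rpl26, Naca, Deptor, Pgr, Wnt7a, Foxl2, Epcam, Cldn7, Rpl22l1 and Rheb were added after their values were seen. The members and lists were chosen with earlier results of these data known. Alternatives were quantile, median and upper-quartile scaling, other filters, a pseudocount of 0.1, other variance models, array weights, a replicate block, a loess correction for GC content and length (span 0.5), a threshold of 0.1, and leaving out each library; rescaling to an equal sum was added after seeing the data. Count tests were not run. Python 3.11.15 with pandas 2.3.3, numpy 2.4.6, scipy 1.17.1 and matplotlib 3.10.9 was used.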

Additional observations from a re-analysis of the deposited data

How the results depend on the processing

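In all 18 alternatives 0 members were called at the threshold of 0.05, as was so at 0.1 in the fit as reported; with array quality weights 5 members (Rpl7, Rps25, Rpl30, Rps24 and Rps7) had a limma adjusted p between 0.0743 and 0.099. Over all genes, 0 were called except with array quality weights (316) and without deleted replicate 2 (12), so leaving out 1 library gave 0 to 12; at an unadjusted p under 0.05 there were 630 as reported, 352 without deleted replicate 1, 353 without control 3, 359 without control 1, 1403 without deleted replicate 3 and 1726 without deleted replicate 2, and 0 members in each of these. Leaving out 1 library moved the large subunit median between 0.02 and 0.09, the small between 0.03 and 0.13, and small minus large between -0.02 and 0.04, against 0.06, 0.07 and 0.01 as reported. Quantile normalization gave a small subunit median of -0.02 and a difference between subunits of -0.04, array quality weights a difference of 0.07, and the GC content and length correction -0.03 and -0.02 for the large and small subunit; the cause was not tested. Nat10 changed by -0.95 to -1.28 when 1 library was left out, and was called with array quality weights (-1.09; limma adjusted p 0.0386). Of 810 member changes under the alternatives, 98 had the other sign, in 31 members whose reported change was at most 0.12. The 810 include fits that could not turn a sign, since the other filters, other variance models and the replicate block leave each change as it was. With a pseudocount of 0.1 the members also stayed at 36 higher and 9 lower. The 98 therefore come from the remaining alternatives. The groups share replicate numbers, but same-numbered libraries did not deviate together (correlations -0.341, -0.029 and 0.1). In a fit with a replicate block, 0 genes and 0 members were called, the medians were 0.06, 0.07 and 0.01, and Nat10 was at -1.11. Because each replicate number holds 1 library of each group, the block can alter p-values but not these changes. Count tests (edgeR, DESeq2) were not run, since FPKM are not counts, and they leave the depth behind each value unknown.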
